A study of Macaca mulatta with 2 samples.

Results

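The 9 rod genes described here are SAG, GNAT1, GNGT1, PDE6A, PDE6B, PDE6G, CNGA1, NRL and NR2E3. They were chosen by gene symbol, and all 9 of 9 were found among the 26533 features of the count tables. RNA was measured on Visium slides, where spots 55 μm wide bind the poly(A) tails of RNA leaving the section and each captured molecule is counted once as a unique molecular identifier (UMI). Such a spot is a small area that can hold several cells, and in such data fewer rods and less RNA per rod cannot be told apart. Sections of 10 μm were cut from full-thickness punches of 4 mm holding retina, choroid and sclera, taken outside the injected areas of the right eyes of 2 wild-type male rhesus macaques at 12 weeks after surgery. NHP1, aged 5 years, had received AAV2-CAG-hRPE65 under the retina elsewhere in the same eye. NHP2, aged 6 years, had received AAV8-GRK1-hRPGRco in 1 area and AAV8-GRK1-mScarlet in another, both driven by the photoreceptor-specific GRK1 promoter. Both eyes were therefore operated eyes, and both had also received 40 mg of triamcinolone beside the globe. The right eyes had no adalimumab. The sources differ on whether the punches were fresh-frozen or had first been fixed in paraformaldehyde. There was 1 section per animal, so the sections have no replicates, no test was made and no p-value is given.

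Rods are the photoreceptors of dim light. Light activates the rod's visual pigment, which switches on the G protein transducin, whose alpha subunit is encoded by GNAT1 and whose gamma subunit is encoded by GNGT1. Transducin releases the inhibitory gamma subunit (PDE6G) from the catalytic subunits of phosphodiesterase (PDE6A and PDE6B), cyclic GMP falls, and the cyclic nucleotide-gated channel, of which CNGA1 is the alpha subunit, closes. SAG, the rod arrestin, ends the signal by binding the phosphorylated pigment. NRL is the transcription factor that sets rod over cone fate, and NR2E3, a nuclear receptor downstream of it, represses cone genes in rods.

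NHP1 had 534 tissue spots with 1484784 UMIs and a median of 1473.5 UMIs per spot, and NHP2 had 470 tissue spots with 805726 UMIs and a median of 370.5. The 9 genes held 11452 UMIs in the tissue of NHP1 and 4269 in that of NHP2. Regions were drawn by clustering the spots of each section without the 9 genes and without the related phototransduction, rod fate and cone genes, so that these genes did not shape the regions. Regions were named from marker genes that did not include the 9 genes. In NHP1 the photoreceptor region had 92 spots, in which 13 of 15 photoreceptor layer markers stood at least 1.5-fold above the rest of the section. A second region of 70 spots, called photoreceptor-RPE, had 10 of 15 photoreceptor markers and 8 of 13 markers of the retinal pigment epithelium (RPE) at that level. NHP1 also had an inner retina region of 77 spots, an RPE-choroid region of 72 and a sclera region of 103, while 2 regions of 102 and 18 spots stayed unnamed. In NHP2 the retinal layers fell into a single neural retina region of 47 spots, beside an RPE-choroid region of 54 spots and a sclera of 198. Regions of 123 and 44 spots stayed unnamed there, the larger with a median of 13 UMIs per spot, and 4 tissue spots held no UMI.

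The bases upstream of the genes are shown first for SAG and PDE6A, which hold a CRX motif outside the repeat run described below. CRX, the photoreceptor homeobox factor, is known to bind GGATTA, which reads TAATCC on the other strand. The NRL motif searched was TGCTGA, which reads TCAGCA on the other strand. The NR2E3 motif searched was AAGTCA, which reads TGACTT on the other strand. The 150 bases before the transcription start are printed from the start's own strand, from RefSeq gene models and genome Mmul_10, with the CRX and NRL motifs in capitals. The stretch of SAG is chr12:120756875-120757024 on the plus strand, and that of PDE6A is chr6:147450531-147450680 on the minus strand.
SAG: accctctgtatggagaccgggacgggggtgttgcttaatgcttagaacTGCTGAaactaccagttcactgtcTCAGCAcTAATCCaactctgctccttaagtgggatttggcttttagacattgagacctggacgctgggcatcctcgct
PDE6A: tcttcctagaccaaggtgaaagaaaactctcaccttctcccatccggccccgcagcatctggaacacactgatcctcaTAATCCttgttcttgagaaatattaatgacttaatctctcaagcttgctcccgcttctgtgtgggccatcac
Of the 2 stretches that of SAG alone holds the NRL motif, in 2 copies, both upstream of its CRX motif. Within 250 bases before the start, read on both strands, the CRX motif was present at 5 of the 11 start sites of the 9 genes (1 each of SAG, PDE6A, PDE6G, CNGA1 and NRL) against 8.98% of 48160 start sites of 20771 genes. PDE6B and NRL have 2 start sites each. In 3 of these 5 (PDE6G, CNGA1 and NRL) the CRX letters lie in a longer run found in Alu repeats, which 3.28% of the start sites hold. The NRL motif was present at 3 of the 11 (SAG, GNAT1 and PDE6B), against 12.0% of start sites, and the NR2E3 motif at 1, that of PDE6A, against 9.45%. For PDE6B the match lies before the inner of its 2 starts. A match of 6 letters is a description of the sequence and not a bound site.

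The 9 genes together were highest in the photoreceptor regions of NHP1. Their sum was 151 UMIs per 10000 (95% interval 147 to 155) in the photoreceptor region and 151 (143 to 160) in the photoreceptor-RPE region. It was 33.2 (31.6 to 34.8) in the inner retina, 27.3 (24.6 to 30.2) in the RPE-choroid region and 36.8 (32.6 to 41.5) in the sclera. The unnamed region of 102 spots held 36.9, 49.96 and 47.4 per 10000 in its tissue pieces. Of the unnamed region of 18 spots, 16 lay in 1 piece and held 86.1 per 10000 (82.0 to 90.4). The drop outside the photoreceptor regions was thus smaller in the unnamed regions. All intervals in the text are exact and cover counting error only. The ratio of the pooled photoreceptor regions to the inner retina was 4.55 (4.32 to 4.80), that to the RPE-choroid region was 5.52 (4.98 to 6.15) and that to the sclera was 4.10 (3.63 to 4.64). The photoreceptor layer markers also stood highest in both photoreceptor regions, but these markers named the regions, so this was set in advance and is no separate support. Their summed level was 158 per 10000 in the photoreceptor region and 151 in the photoreceptor-RPE region, and 43.2, 50.9 and 51.6 in the inner retina, RPE-choroid and sclera regions, where 13, 10 and 8 of the 15 markers had a UMI. The markers at 0 in the sclera of NHP1 were IMPG1, IMPG2, PRPH2, FSCN2, OPN1SW, RP1L1 and CABP4.

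**Figure D1:**
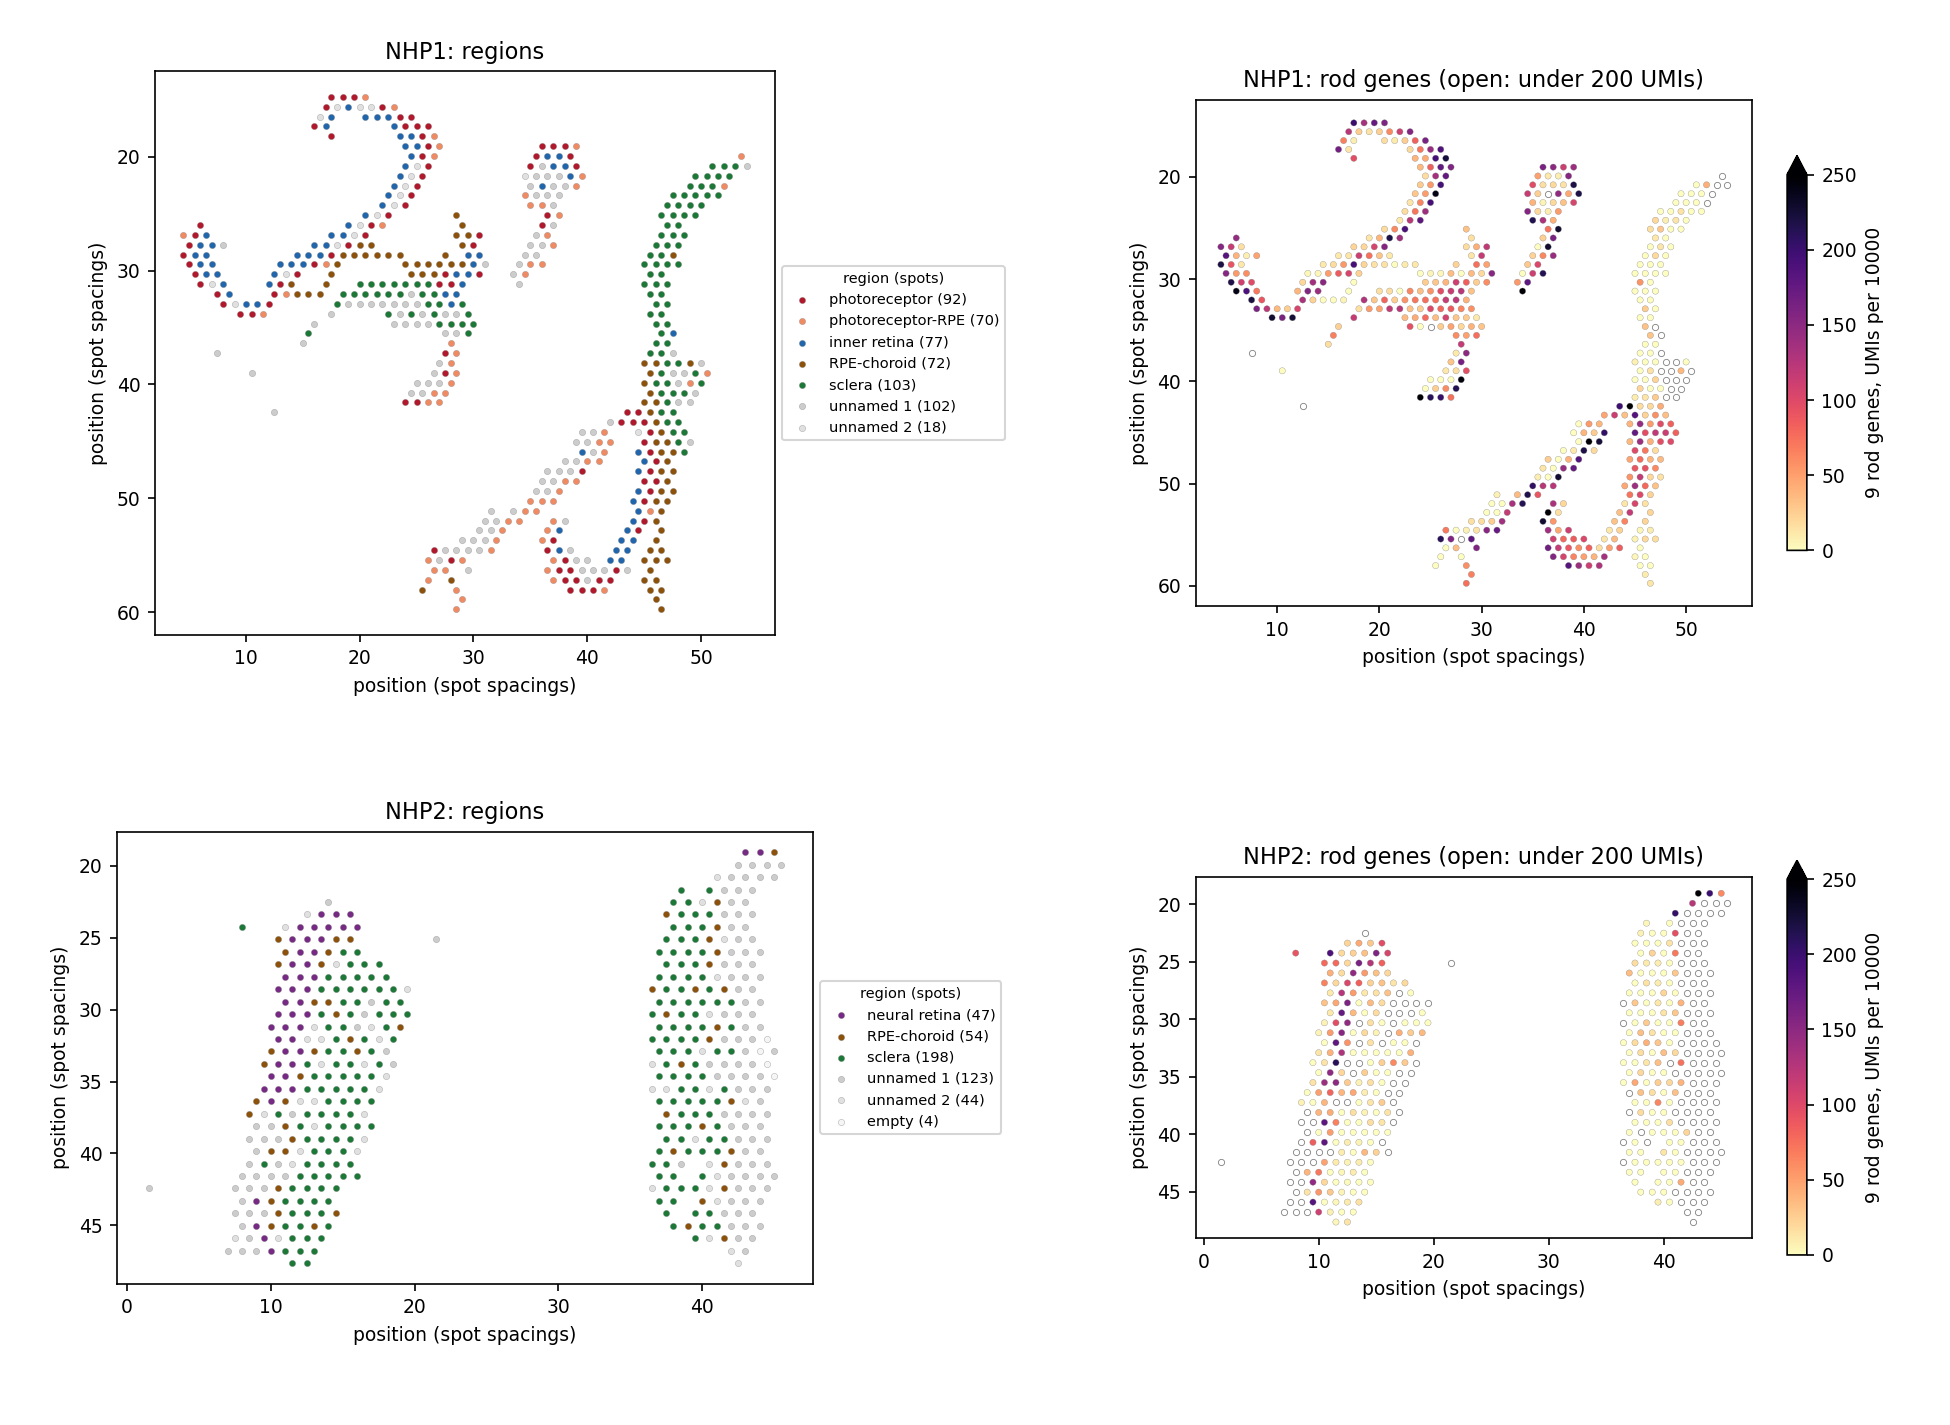
Tissue spots of both sections, at left coloured by region with the number of spots in the key and at right by the summed UMIs of the 9 rod genes per 10000 UMIs of the spot, with axes in spot spacings and open circles for spots under 200 UMIs. Dark spots follow the thin photoreceptor bands of NHP1 and a narrow band within the neural retina of NHP2, whose highest spot held 270 per 10000.

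Spots within a region varied widely. Among spots with at least 200 UMIs, the summed level in the photoreceptor region of NHP1 ran from 11.5 to 272 per 10000 with a median of 138, and in the photoreceptor-RPE region from 0 to 269 with a median of 152. The inner retina had a median of 26.1, a lower quartile of 13.6 and a highest spot of 121, so most of its spots lay within the wide range of the photoreceptor region, though its upper quartile of 47.7 was under the lower quartile of 97.01 there. The RPE-choroid region had a median of 15.4 and the sclera one of 13.7, with highest spots of 140.0 and 129. In NHP2 the neural retina ran from 0 to 270.2 per 10000 with a median of 52.5, below the lower quartile of 97.01 in the NHP1 photoreceptor region.

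Within the neural retina of NHP2 the rod genes were higher in some spots than in others. Its sum was 65.7 per 10000 (63.6 to 67.9). When its spots were divided by the class whose marker genes summed highest, the 16 spots of the photoreceptor class held 156 per 10000 (149 to 163) and the 25 spots of the inner retina class 30.2 (28.5 to 31.9). The other 6 spots, which scored highest for neither class, held 128 (113 to 144). The RPE-choroid region of NHP2 held 53.0 per 10000 (47.7 to 58.7) and its sclera 9.25 (7.80 to 10.9). Its first unnamed region held 53.0 and 71.4 in the 2 tissue pieces, on 15 and 21 UMIs, and its second 31.0 and 24.8. The ratio of neural retina to RPE-choroid was 1.24 (1.11 to 1.38), and it turned to 0.797 when every spot was given the class of its highest marker sum and stood at 2.95 when the rod genes were kept in the clustering. The ratio of neural retina to sclera was 7.10 (6.01 to 8.46). The photoreceptor layer markers stood at 93.1 per 10000 in the neural retina, 85.6 in the RPE-choroid region and 26.8 in the sclera, with 12, 8 and 9 of 15 detected, so these markers too were nearly as high in the RPE-choroid region as in the neural retina. The part of photoreceptor RNA lying outside its layer in these levels was not tested. The sclera of NHP2 lacked IMPG2, PRPH2, FSCN2, OPN1SW, RP1L1 and CABP4.

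SAG, the rod arrestin, was present at 57.8 per 10000 in the photoreceptor region and 55.4 in the photoreceptor-RPE region of NHP1, with 2237 and 426 UMIs. Its levels were 12.5 in the inner retina, 10.9 in the RPE-choroid region and 15.3 in the sclera. In NHP2 SAG stood at 27.1 in the neural retina, 14.3 in the RPE-choroid region and 1.30 in the sclera. SAG was thus highest in the regions holding photoreceptors in both sections as drawn by clustering. In NHP2 its ratio of neural retina to RPE-choroid was 1.89 (1.54 to 2.35), but 1.10 (0.943 to 1.28) by marker class and 8.27 (3.22 to 30.4) with the rod genes kept in the clustering. The inner retina and sclera of NHP1 did not differ beyond counting error, with a ratio of 0.821 (0.672 to 1.01). SAG was 4.58 times as high in the photoreceptor regions as in the inner retina of NHP1 (4.21 to 4.99) and 20.8 times as high in the neural retina as in the sclera of NHP2 (13.4 to 34.2).

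The gamma subunit of rod transducin, GNGT1, stood near SAG in the photoreceptor regions of NHP1 and apart from it in the RPE-choroid regions. It stood at 56.1 and 54.7 per 10000 in the photoreceptor and photoreceptor-RPE regions, 10.6 in the inner retina, 5.99 in the RPE-choroid region and 9.38 in the sclera of NHP1. In NHP2 it was 20.4 per 10000 in both the neural retina and the RPE-choroid region, with a ratio of 0.999 (0.838 to 1.20), and 1.37 in the sclera. This ratio depended on how the regions were drawn, and was 0.681 (0.590 to 0.788) by marker class, 2.62 (1.42 to 5.47) with the rod genes kept in the clustering, and 4.51 in the piece with most spots, which held 2 neural retina spots. Its ratio of photoreceptor regions to RPE-choroid in NHP1 was 9.32 (7.48 to 11.8), where that of SAG was 5.28 (4.47 to 6.26). The alpha subunit GNAT1 was sparse, with 33 UMIs in the tissue of NHP1 and 5 in NHP2. It stood at 0.475 per 10000 in the photoreceptor regions together and 0.169 in the inner retina, a ratio of 2.80 (1.24 to 6.92). No UMI of GNAT1 lay in the RPE-choroid region of NHP1. The photoreceptor regions held 22, and the exact interval of the ratio starts at 1.62.

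The catalytic subunits of phosphodiesterase differed in depth. PDE6A had 594 UMIs in the tissue of NHP1 and stood at 6.54 per 10000 in the photoreceptor region, 8.98 in the photoreceptor-RPE region, 1.94 in the inner retina, 1.90 in the RPE-choroid region and 1.47 in the sclera. In NHP2 it stood at 4.37 in the neural retina, 1.16 in the RPE-choroid region and 0.456 in the sclera. PDE6A was 3.77 times as high in the neural retina of NHP2 as in its RPE-choroid region (1.88 to 8.83), on 8 UMIs in the latter. By marker class this ratio was 1.23 (0.822 to 1.90). PDE6B had 40 UMIs in NHP1 and 12 in NHP2, of which 26 lay in the photoreceptor regions of NHP1 and 10 in the neural retina of NHP2. Its ratio to the inner retina in NHP1 was 5.97, with a wide interval of 2.25 to 19.9. The inhibitory subunit PDE6G had 217 and 56 UMIs. It stood at 2.43 and 3.90 per 10000 in the photoreceptor and photoreceptor-RPE regions, and at 0.808, 0.731 and 0.938 in the inner retina, RPE-choroid and sclera of NHP1. In NHP2 PDE6G was 0.859 in the neural retina, 0.579 in the RPE-choroid region and 0.261 in the sclera, and only the first of these rested on more than 4 UMIs.

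CNGA1 encodes the channel's alpha subunit. In NHP1 it had 111 UMIs in the photoreceptor regions, 19 in the inner retina and 3 in the RPE-choroid region. It reached the minimum through the photoreceptor regions, so its ratios are not ranked against those of the other rod genes. The ratio to the RPE-choroid region was 10.9 (3.64 to 53.8), an interval that holds the 9.32 of GNGT1. In the largest piece its ratio to the inner retina was 2.46 (0.810 to 9.98) and that of PDE6A 4.10. By marker class the ratio to the inner retina was 4.89 for CNGA1 and 5.74 for PDE6B. CNGA1 stood at 2.53 per 10000 in the photoreceptor region and 1.69 in the photoreceptor-RPE region. Its levels were 0.357 in the inner retina, 0.219 in the RPE-choroid region and 0.402 in the sclera. The ratio to the inner retina was 6.70 (4.10 to 11.6), an interval that overlaps those of SAG and GNGT1. In NHP2 CNGA1 had 18 UMIs in all tissue, of which 9 lay in the neural retina, 3 in the RPE-choroid region and 5 in the sclera, too few to rank the regions.

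NRL, the rod fate factor, stood at 24.2 per 10000 in the photoreceptor region and 24.99 in the photoreceptor-RPE region of NHP1. It was 6.60 in the inner retina, 7.45 in the RPE-choroid region and 9.11 in the sclera. In NHP2 it was 12.5 in the neural retina, 15.8 in the RPE-choroid region and 5.47 in the sclera. NRL was thus higher in the RPE-choroid region than in the neural retina of NHP2, with a ratio of neural retina to RPE-choroid of 0.792 (0.646 to 0.978). That direction depended on how the regions were drawn. It turned to 1.64 when the rod genes were kept in the clustering, and to 2.64 in the piece with most spots, which held only 2 of the 47 neural retina spots. NR2E3 had 21 UMIs in NHP1 and 4 in NHP2. Of these, 14 lay in the photoreceptor regions of NHP1 and 2 in its inner retina, and all 4 of NHP2 lay in the neural retina. NR2E3 thus had under 20 UMIs, the minimum for a comparison, in every pair of regions within a section as drawn by clustering. By marker class it had 11 UMIs in the photoreceptor class and 9 in the inner retina class of NHP1, at 0.268 and 0.111 per 10000, with intervals that overlap.

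**Figure D2:**
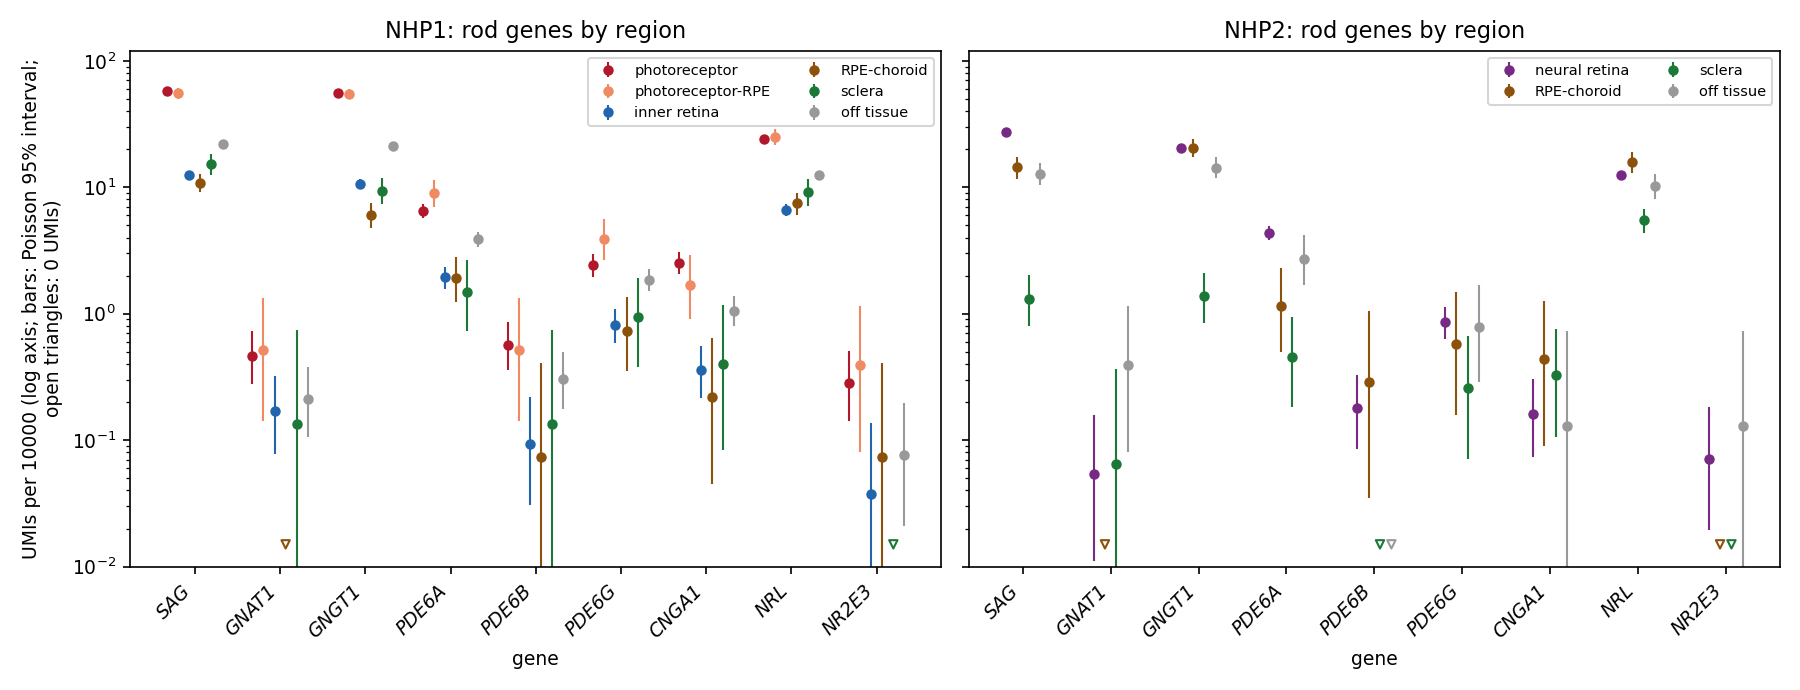
UMIs per 10000 on a log axis for each of the 9 rod genes (horizontal axis) by region in NHP1 (left) and NHP2 (right), with exact Poisson 95% intervals as bars and open triangles for regions with 0 UMIs. In NHP1 both photoreceptor regions lie above the other regions for SAG, GNGT1, PDE6A, PDE6G and NRL, and in NHP2 the RPE-choroid points for GNGT1 and NRL lie at or above the neural retina.

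The counts of genes past a ratio of 2 were read against all genes with at least 20 UMIs in the 2 regions compared. In the comparison with the inner retina of NHP1, GNAT1, PDE6B and CNGA1 had 9, 5 and 19 UMIs there. They reached the minimum through the photoreceptor regions and are left out of the count. SAG, GNGT1, PDE6A, PDE6G and NRL had at least 43 UMIs in the inner retina. These were 4.58, 5.25, 3.59, 3.31 and 3.69 times as high in the photoreceptor regions. Of all 6673 genes compared 9.67% were at least 2-fold higher, and the median ratio of all genes was 1.02. Over the RPE-choroid region and the sclera, where 23.2% and 32.2% of all genes at the same minimum passed this ratio, GNAT1 and PDE6B reached the minimum through the photoreceptor regions alone and are left out of the counts. They had 0 and 1 UMIs in the RPE-choroid region, with intervals from 1.62 and 1.26, and 1 UMI each in the sclera, with intervals (0.573 to 146 and 0.688 to 172) that reach below 1. SAG, GNGT1, PDE6A and NRL had at least 26 UMIs in the RPE-choroid region, with ratios of 5.28, 9.32, 3.66 and 3.26. In the sclera SAG, GNGT1 and NRL had at least 68 UMIs, with ratios of 3.76, 5.96 and 2.67. PDE6G and CNGA1 had 10 and 3 UMIs in the RPE-choroid region. In the sclera PDE6A, PDE6G and CNGA1 had 11, 7 and 3. In these pairs they reached 20 UMIs through the photoreceptor regions and are left out too. NR2E3 was not compared in any pair, since it had under 20 UMIs. Between the photoreceptor and photoreceptor-RPE regions 0 of 8 differed by 2-fold in favour of the former, against 9.96% of all genes, and the ratio of the sums was 0.999 (0.938 to 1.06). In NHP2 SAG, GNGT1 and NRL had at least 99 UMIs in the RPE-choroid region. Their ratios of neural retina to RPE-choroid were 1.89, 0.999 and 0.792, all under 2, and 27.6% of all genes reached 2-fold. PDE6A and PDE6G had 8 and 4 UMIs in the RPE-choroid region, reached the minimum through the neural retina and are left out. With both included the count was 1 of 5, that of PDE6A. It depended on how the regions were drawn, and was 0 of 5 by marker class, against 24.6% of all genes. With the rod genes kept in the clustering it was 4 of 5, against 48.3%. Over the sclera of NHP2, SAG, GNGT1 and NRL, each with at least 20 UMIs there, were 20.8, 14.9 and 2.28 times as high in the neural retina. Of all genes 33.3% were at least 2-fold higher. PDE6A and PDE6G had 7 and 4 UMIs in the sclera, reached the minimum through the neural retina and are left out. The counts of 5 over the RPE-choroid region of NHP2, here and in the closing section, are of SAG, GNGT1, PDE6A, PDE6G and NRL. They hold genes that reached the minimum through the neural retina and are not read as a result about the rod genes.

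The RPE-choroid and sclera regions stood in opposite order in the 2 sections as drawn by clustering, and in the same order by marker class. In NHP1 the sum of the 9 genes was lower in the RPE-choroid region than in the sclera, with a ratio of 0.742 (0.633 to 0.870), and 0 of 4 genes compared reached 2-fold, against 15.8% of all genes. In NHP2 the ratio was 5.73 (4.70 to 6.9999), and 3 of 3 genes compared (SAG, GNGT1 and NRL) were at least 2-fold higher in the RPE-choroid region, against 18.9% of all genes. The sclera of NHP1 was itself uneven. Its 74 spots in the largest tissue piece held 22.2 per 10000 (18.1 to 26.8) and its 29 spots in the next piece held 63.0 (53.9 to 73.3). The ratio of RPE-choroid to sclera was 1.25 (0.987 to 1.60) in the first of these pieces and 0.425 (0.341 to 0.530) in the second. In NHP2 it was 6.16 (4.26 to 9.03) and 5.56 (4.39 to 7.09) in the 2 pieces. When each spot of NHP1 was given the class of its highest marker sum, the order turned to 49.4 per 10000 in the RPE-choroid class and 38.2 in the sclera class. The direction in NHP1 thus rested on 1 piece and on how the regions were drawn. The size of the difference in NHP2 also depended on the regions, since with the rod genes kept in the clustering its RPE-choroid stood at 22.2 per 10000 (14.8 to 32.1) and its sclera at 11.2 (9.69 to 12.9).

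NRL made up a different share of the rod gene UMIs in different regions. In NHP1 it was 16.03% of the UMIs of the 9 genes in the photoreceptor region (15.1 to 17.0) and 16.5% in the photoreceptor-RPE region (14.4 to 18.8). Its share was 19.9% in the inner retina, 27.3% in the RPE-choroid region and 24.7% in the sclera. In NHP2 NRL was 19.0% in the neural retina (17.7 to 20.3), 29.8% in the RPE-choroid region (25.1 to 34.8) and 59.2% in the sclera (50.6 to 67.3). The share of NRL was above that of the retinal regions in every RPE-choroid and sclera region, with intervals that, within a section, do not overlap those of the photoreceptor regions (NHP1) or the neural retina (NHP2). Within the largest piece of NHP1 the scleral share was 21.7% (14.3 to 30.8), which overlaps the 18.1% (16.1 to 20.3) of the photoreceptor region there. Both pieces of NHP2 showed it, with 65.1% (49.1 to 79.0) of 43 UMIs and 56.7% (46.3 to 66.7) of 97 UMIs in the sclera. The spots off tissue held 19.8% NRL (18.4 to 21.2) in NHP1 and 24.8% (20.1 to 29.9) in NHP2, so the scleral share of NHP2 was also above that of RNA found outside the tissue of the same section.

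**Figure D3:**
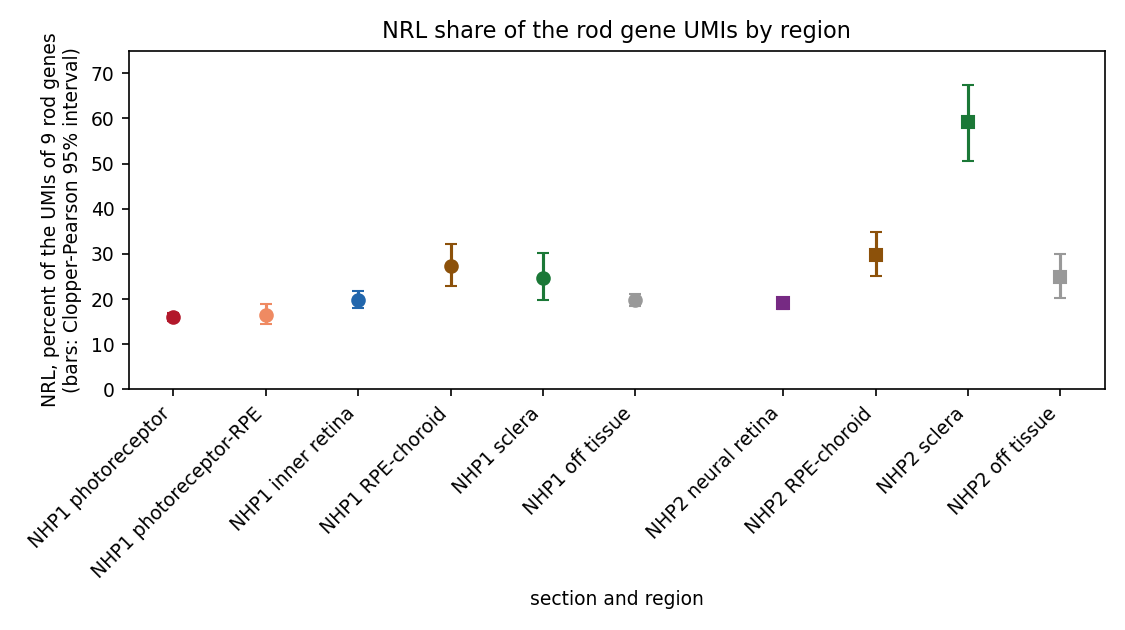
NRL as a percent of the summed UMIs of the 9 rod genes (vertical axis, with exact Clopper-Pearson 95% intervals) in each region and off tissue, with circles for NHP1 and squares for NHP2. The shares lie between 16.03% and 27.3% in the named regions of NHP1, and the sclera of NHP2 stands above all other points at 59.2%.

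Counts of single spots rest on the same UMIs as these shares and are no separate support. In the sclera of NHP2 60 of 198 spots had an NRL UMI, and 45 of these 60 (75%) had no UMI of SAG or GNGT1. That sclera held 20 UMIs of SAG and 21 of GNGT1 in all. In the photoreceptor regions of NHP1 2 of 142 spots with NRL lacked both, and in its sclera 7 of 32. Such counts depend on depth, and they were not thinned. The median was 558 UMIs per spot in the sclera of NHP2, 583 in that of NHP1 and 3533 in the photoreceptor region of NHP1. The highest scleral spot of NHP2 held 8 UMIs of NRL. The RefSeq model of NRL (chr7:86163322-86202871, minus strand) has 2 starts and overlaps 2 genes on the opposite strand, PCK2 (chr7:86177977-86188002) and DCAF11 (chr7:86201932-86212458). PCK2 stood at 0.0652 per 10000 in the sclera of NHP2 and 0.0895 in its neural retina. DCAF11 stood at 1.11 and 0.966 per 10000 there, against 5.47 and 12.5 for NRL. The part of these neighbours, or of another transcript at the locus, in the NRL count was not tested. GNAT1 and PDE6B also overlap long noncoding RNAs on the opposite strand.

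Other genes of the phototransduction pathway were given as a list of 15, of which RCVRN and CNGB1 were not found by symbol in the features. Over the inner retina of NHP1, GUCA1A, GUCA1B, PDC and GNB1, each with at least 46 UMIs there, were at least 2-fold higher in the photoreceptor regions. GNB5 and PDE6D were not, and 9.67% of all genes were. GUCA1C, with 18 and 2 UMIs, reached the minimum through the photoreceptor regions and is not counted. GUCA1A, an activator of the guanylate cyclase that restores cyclic GMP, had 3456 UMIs in NHP1 and 2020 in NHP2, and its ratio was 4.43 (4.03 to 4.88). GUCA1B, a related activator, had a ratio of 4.41 (3.80 to 5.12). PDC encodes phosducin, a binding partner of transducin's beta and gamma subunits, and had a ratio of 5.91 (4.30 to 8.29). GNB1, the rod transducin beta subunit, had a ratio of 4.04 (3.16 to 5.20). GNB5, the beta subunit that pairs with the RGS9 brake on transducin, reached 1.74 (1.48 to 2.06) and PDE6D, a carrier of prenylated proteins, 0.964 (0.678 to 1.37). The genes at lower depth in tissue were GUCA1C with 22 and 5 UMIs in NHP1 and NHP2 and a ratio of 10.3 (2.47 to 91.8) on 18 and 2 UMIs, RGS9 with 18 and 2, SLC24A1 with 11 and 2, GUCY2F with 4 and 0 and RGS9BP with 1 and 0, while GRK1 and GUCY2D had 0 in both sections. Over the sclera of NHP2 GUCA1A, GUCA1B and GNB5, each with at least 29 UMIs there, were 7.09, 3.15 and 3.55 times as high in the neural retina. Of all genes 33.3% were at least 2-fold higher. PDC, GNB1 and PDE6D had 2, 12 and 6 UMIs in the sclera, reached the minimum through the neural retina and are not counted. Over its RPE-choroid region PDC and PDE6D had ratios of 2.44 (0.917 to 9.18) and 3.58 (1.19 to 17.7), on 4 and 3 UMIs there. Both reached the minimum through the neural retina and are not counted against the 27.6% of all genes at 2-fold in this comparison. In the latter comparison GUCA1A had a ratio of 1.31 (1.12 to 1.54) and GUCA1B one of 0.973 (0.720 to 1.34).

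Of 10 listed factors of photoreceptor fate, 3 could be compared over the inner retina of NHP1 and 2 of them, OTX2 and NEUROD1, were at least 2-fold higher in the photoreceptor regions, against 9.67% of all genes. NEUROD1, a helix-loop-helix factor of photoreceptors, had a ratio of 2.86 (2.13 to 3.87). OTX2, a homeobox factor of photoreceptors and pigment epithelium, had one of 2.29 (1.75 to 3.03) over the inner retina and 1.37 (0.943 to 2.03) over the RPE-choroid region. MEF2D, a MADS-box factor, reached 1.72 (0.946 to 3.20) over the inner retina on 30 and 20 UMIs. CRX, the factor named above for its motif, had 8 UMIs in NHP1 and 0 in NHP2, and RORB, which acts upstream of NRL, had 17 and 5.

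The cone counterparts with enough UMIs, ARR3 and PDE6H, were also higher in the photoreceptor regions than in the inner retina of NHP1, at 4.82 (3.93 to 5.95) and 6.45 (4.33 to 9.93) times. Rods and cones were therefore compared as shares of a pair. SAG made up 84.2% of the UMIs of SAG and ARR3, the cone arrestin, in the photoreceptor region of NHP1 (82.8 to 85.6). The share was 86.2% in the photoreceptor-RPE region, 85.2% in the inner retina, 84.4% in the sclera, 83.8% off tissue and 78.01% in the RPE-choroid region (71.5 to 83.7), all with intervals that overlap that of the photoreceptor region. In NHP2 the share was 89.6% in the neural retina (88.0 to 91.0), 83.2% in the RPE-choroid region (75.2 to 89.4), 62.5% in the sclera on 32 UMIs (43.7 to 78.9) and 76.6% off tissue (68.3 to 83.6). The second unnamed region of NHP1 stood at 90.2% (87.9 to 92.2). PDE6G made up 41.4% of PDE6G and its cone counterpart PDE6H in the photoreceptor region of NHP1 (34.9 to 48.1), and 59.7% in the inner retina (47.5 to 71.1), 57.1% in the neural retina of NHP2 (45.9 to 67.9) and 61.0% off tissue in NHP1 (53.0 to 68.6). PDE6A and PDE6B together made up 96.8% of the UMIs of these and PDE6C in the photoreceptor region of NHP1 and 99.2% in the neural retina of NHP2. GNAT1 made up 58.9% of GNAT1 and GNAT2 in NHP1 on 56 UMIs (44.98 to 71.9). GNGT2, the partner of GNGT1, was not found by symbol, and CNGA3 had 0 UMIs in both sections.

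Across all tissue the 9 genes were lower in NHP2 than in NHP1, at 53.0 (51.4 to 54.6) against 77.1 (75.7 to 78.6) UMIs per 10000, a ratio of 0.687 (0.663 to 0.712). Animal, library, depth and region sizes all differ between the sections, and their parts in this ratio cannot be told apart. Of all 8788 genes compared 4.23% had a ratio of at most 0.5. Among the rod genes with at least 20 UMIs in each section (SAG, GNGT1, PDE6A, PDE6G and NRL) only PDE6G did, at 0.476 (0.348 to 0.641). CNGA1 stood at 0.207 (0.120 to 0.338), GNAT1 at 0.279 (0.0851 to 0.720) and NR2E3 at 0.351 (0.0876 to 1.04). These had 18, 5 and 4 UMIs in NHP2, reached the minimum through NHP1, where they were higher, and are not counted. SAG stood at 0.689 (0.651 to 0.730), GNGT1 at 0.616 (0.578 to 0.655), PDE6A at 0.810 (0.697 to 0.938), PDE6B at 0.553 (0.264 to 1.07) and NRL at 0.864 (0.798 to 0.934). The RPE-choroid regions went the other way, with the sum 1.94 times as high in NHP2 (1.67 to 2.25). Of 4 genes compared there 2 were at least 2-fold higher in NHP2, GNGT1 at 3.41 (2.58 to 4.53) and NRL at 2.12 (1.60 to 2.80), against 9.11% of all genes. This order depended on how the regions were drawn, at 78.4 per 10000 in NHP2 and 49.4 in NHP1 by marker class, but 22.2 (14.8 to 32.1) and 30.6 (27.8 to 33.5) with the rod genes kept in the clustering.

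The gap was smaller in spots of the photoreceptor class, but not in those of the inner retina class. Spots whose marker genes summed highest for the photoreceptor layer numbered 37 in NHP2 and 123 in NHP1, a comparison chosen after seeing the data. Of the 37 spots, 16 lay in the neural retina region and held 142080 of the 145360 UMIs of this class in NHP2. In them the 9 genes stood at 155 per 10000 (148 to 161) in NHP2 and 164.5 (160.6 to 168.5) in NHP1, a ratio of 0.940 (0.896 to 0.986). SAG was at 1.02 (0.943 to 1.10), NRL at 1.18 (1.05 to 1.32), PDE6A at 1.27 (1.03 to 1.56), GNGT1 at 0.777 (0.714 to 0.845) and PDE6G at 0.723 (0.467 to 1.09). CNGA1 kept its difference, at 0.344 per 10000 on 5 UMIs in NHP2 and 2.59 on 106 UMIs in NHP1, a ratio of 0.133 (0.0423 to 0.320). Of all genes compared 7.59% had a ratio of at most 0.5 in this class. The rod genes at that level, CNGA1, GNAT1 and PDE6B, had 5, 3 and 4 UMIs in NHP2. They reached the minimum through NHP1, where they were higher, and are not counted against this share. The intervals of GNAT1 (0.0844 to 1.51) and PDE6B (0.110 to 1.25) reach 1. In spots of the inner retina class the sum was 29.8 per 10000 in NHP2 and 43.4 in NHP1, a ratio of 0.685 (0.642 to 0.732).

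CNGA1 was not carried by a few spots of NHP1. Its 160 UMIs lay in 94 spots, the highest with 8, and the 5 highest spots held 29. The photoreceptor region held 1.36 per 10000 (0.759 to 2.24) in the largest piece of NHP1, 3.01 (2.37 to 3.77) in the next and 2.92 (1.17 to 6.02) in the third, each above the 0.344 of NHP2's photoreceptor class, whose interval (0.112 to 0.803) overlaps that of the first piece alone. The point estimates of the 3 pieces thus differed from each other as well.

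**Figure D4:**
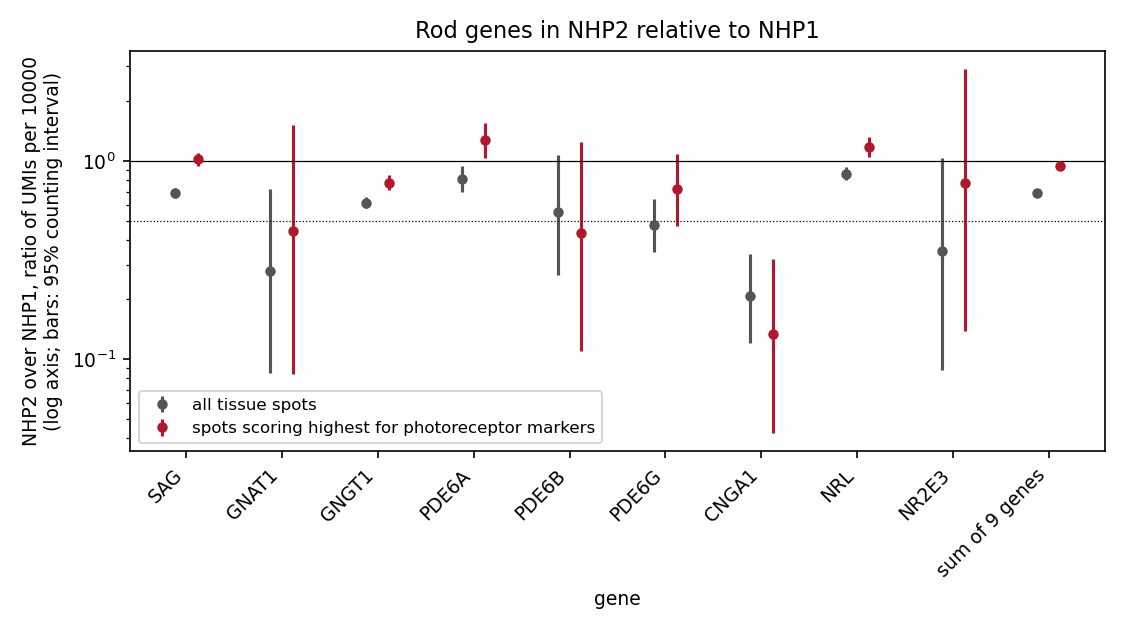
Ratio of NHP2 to NHP1 in UMIs per 10000 on a log axis for each rod gene and their sum, over all tissue spots (grey) and over the spots that score highest for photoreceptor markers (red), with exact conditional 95% counting intervals and lines at 1 and 0.5. The sum moves from 0.687 to 0.940 and SAG from 0.689 to 1.02, while CNGA1 goes from 0.207 to 0.133.

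In tissue the rod genes were lower at 5 or more spacings than near the photoreceptor regions of NHP1 or the neural retina of NHP2, though not at every step. In NHP1 the sum was 53.3 per 10000 in tissue spots 1 spacing away from the photoreceptor regions, 27.0 at 2 spacings, 23.8 at 3 to 4 and 14.2 (9.88 to 19.7) at 5 or more. In NHP2 it was 59.3 at 1 spacing from the neural retina, 19.0 at 2, 23.5 at 3 to 4 and 11.2 (9.18 to 13.5) at 5 or more. UMIs of the rod genes were also found off tissue, where NHP1 had 3291 of them at 62.9 per 10000 (60.8 to 65.1) and NHP2 had 319 at 41.5 (37.1 to 46.3). By distance the off-tissue level rose at some steps. In NHP1 it was 48.1 at 2 spacings and 58.8 at 3 to 4, and in NHP2 65.7 at 1 and 113 at 2. As a share of UMIs the tissue stood 1.23 times above the spots off tissue in NHP1 and 1.28 times in NHP2. In amount the gap was far wider, with 21.4 rod gene UMIs per tissue spot against 0.768 off tissue in NHP1 and 9.08 against 0.0792 in NHP2, since spots off tissue held a median of 8 and 4 UMIs of all genes. When off-tissue spots within 3 spacings of tissue were left out, the ratio of shares in NHP2 became 2.29. The levels in the inner retina, RPE-choroid and sclera regions of NHP1 and in the sclera of NHP2 were below those found off tissue as shares of UMIs. Per spot these regions held more, with 22.9, 5.19 and 2.67 rod gene UMIs in NHP1 and 0.717 in the sclera of NHP2.

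**Figure D5:**
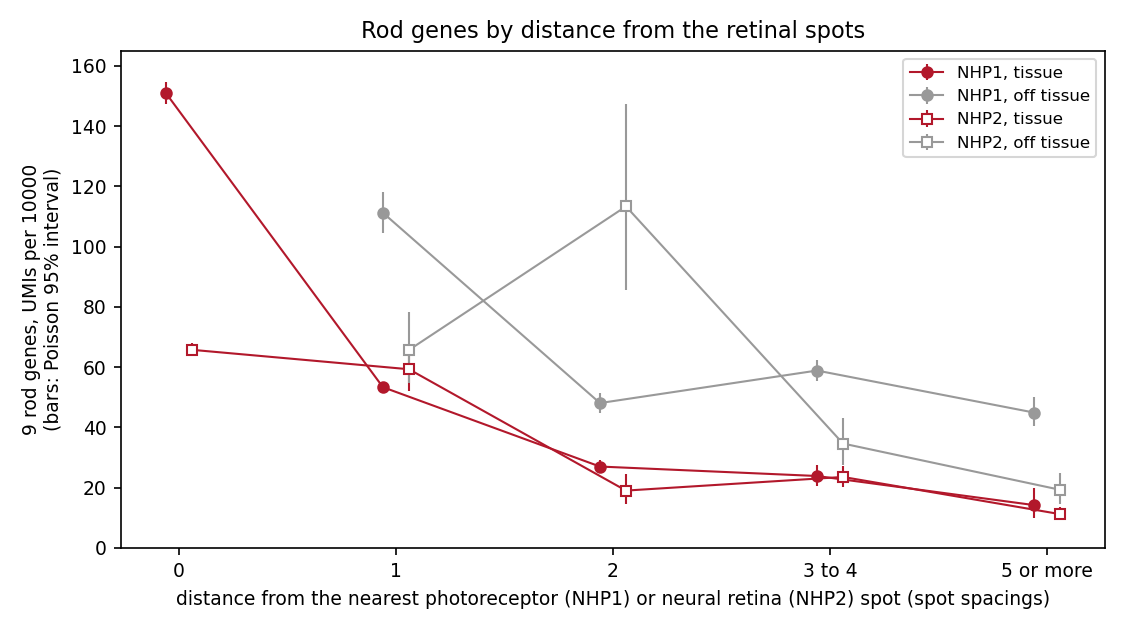
Summed UMIs of the 9 rod genes per 10000 (vertical axis, Poisson 95% intervals) by distance in spot spacings from the nearest photoreceptor spot of NHP1 (circles) or neural retina spot of NHP2 (squares), in tissue (red) and off tissue (grey). Tissue values go from 151 to 14.2 in NHP1 and from 65.7 to 11.2 in NHP2, and the values off tissue at 5 or more spacings are 44.9 and 19.3.

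A UMI of any of the 9 genes was seen in 80.1% of tissue spots in NHP1 and in 41.5% in NHP2. Since depth sets such shares, spots were also thinned to 200 UMIs, which left out 25 and 164 shallower spots. The thinned share was then 92.3% in the photoreceptor region (84.8 to 96.9), 89.4% in the photoreceptor-RPE region, 39.5% in the inner retina, 29.6% in the RPE-choroid region and 37.1% in the sclera of NHP1. In NHP2 it was 68.1% in the neural retina (52.9 to 80.9), 30.6% in the RPE-choroid region and 15.3% in the sclera (10.2 to 21.6). Before thinning the same spots of the inner retina of NHP1 had stood at 98.7%, and those of the NHP2 neural retina at 95.7%.

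The 9 genes followed each other over spots to different degrees. Over 509 spots of NHP1 the Pearson correlation of each gene with the sum of the other 8 was 0.71 for SAG, 0.68 for GNGT1, 0.61 for NRL and 0.50 for PDE6A, and 0.11 to 0.36 for the other 5. The median was 0.10 for genes with at least 50 UMIs in each section, taken against the sum of all 9. GNAT1, PDE6B and NR2E3 had 33, 40 and 21 UMIs in NHP1, under that minimum. Over 306 spots of NHP2 the correlation with the other 8 was 0.55 for GNGT1, 0.48 for PDE6A, 0.45 for SAG and 0.43 for NRL. The median there was 0.12 for genes at the same minimum. The correlation in NHP2 was 0.32 for PDE6G, 0.22 for PDE6B, 0.13 for NR2E3, 0.11 for GNAT1 and 0.04 for CNGA1. Spots share a library and are not replicates, so these values are a description. The authors' own Moran's I, a score of how far neighbouring spots share a level, ranked SAG 30 of 13804 genes in NHP1 and 27 of 12542 in NHP2. GNGT1 ranked 43 and 113, PDE6A 252 and 65, and NRL 101 and 557. CNGA1 ranked 314 in NHP1 and 10748 in NHP2. The other 4 ranked lower in NHP1, PDE6G at 1302, GNAT1 at 3229, NR2E3 at 5131 and PDE6B at 5262, and in NHP2 they stood at 3543, 6810, 6393 and 2206.

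The 10 genes whose spot pattern was most like the sum of the 9, out of 3391 with enough UMIs in both sections, were ROM1, GUCA1A, GAS7, AIPL1, UNC119, ENO2, GUCA1B, ARR3, REEP6 and PROM1. ROM1, a disc rim protein, had a correlation of 0.68 in NHP1 and 0.51 in NHP2, and GUCA1A had 0.65 and 0.51. AIPL1, a chaperone of phosphodiesterase 6, had 0.57 and 0.47, and UNC119, a carrier of transducin alpha, 0.57 and 0.43. The cone arrestin ARR3 was among them, at 0.49 in each section. The means over both sections of the 10 lay between 0.49 and 0.60, and the same points carry the differences in depth between spots.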

How the data were processed

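Visium sections from untreated areas of NHP1 and NHP2 were analysed. Treated sections and single-cell libraries were not used here. Space Ranger 2.1.0, per the file headers, had made the UMI counts the authors deposited for each spot, unnormalized, against Mmul_10 with transgene sequences added. Moran's I is a score that the authors deposited from the same program. Tissue spots were those the authors marked. Spots were scaled to 10000 UMIs, log1p-transformed and clustered per section (scanpy 1.11.5, leidenalg 0.10.2, numpy 2.4.6, Python 3.11.15; 2000 variable genes, 20 components, 15 neighbours, resolution 1, seed 0). A region was named from at least 3 markers, and at least 0.5 of a class's list, with 3 UMIs each and a 1.5-fold level. Retinal classes took precedence, then RPE, or choroid where more of its list passed, over sclera, and a region stayed unnamed where none of its class's markers led and it was shallow or, unless sclera markers passed, had haemoglobin genes among its leading genes. This naming rule was set after the regions were seen. For the class by marker sum, the log1p-transformed levels of each marker of a spot were added, over lists of unequal length. Levels are summed UMIs per 10000 with exact Poisson intervals. Ratios (genes with at least 20 UMIs; called at 2 or 0.5) have conditional binomial and shares Clopper-Pearson 95% intervals. The ratio routine was tested on simulated data. All 9 members were always named, and of each list the counts past the fold and up to 6 genes with most UMIs, with lower genes added after their values were seen. The members and lists were chosen with earlier results of these data known. A count of 0 allows up to 3 UMIs, which is 0.0202 per 10000 of tissue in NHP1 and 0.0372 in NHP2. The alternatives tried are given in the closing section. No doublet caller was run, since a spot can hold several cells. The sequence before NRL is not printed here.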

Additional observations from a re-analysis of the deposited data

Results flagged for a closer look

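The RPE-choroid region and the sclera stood in opposite order in the 2 sections when regions were drawn by clustering. The ratio of RPE-choroid to sclera was 0.742 in NHP1 and 5.73 in NHP2 for the sum of the 9 genes, 0.713 (0.555 to 0.918) and 11.0 (6.75 to 18.8) for SAG, and 0.639 (0.459 to 0.892) and 14.9 (9.39 to 24.8) for GNGT1. The difference between the sections was not tested, since each animal gave 1 section. Within NHP1 the ratio of the sum was 1.25 in the largest piece and 0.425 in the next. With the rod genes kept in the clustering NHP2 stood at 22.2 and 11.2 per 10000. By marker class NHP1 had the same order as NHP2, with RPE-choroid and sclera at 49.4 and 38.2 per 10000 for the sum, 17.9 and 16.4 for SAG, and 15.1 and 9.15 for GNGT1. As shares of UMIs the regional values of NHP1 for the sum also lie below the 62.9 per 10000 found off tissue, while per spot they lie above it, at 5.19 and 2.67 UMIs against 0.768.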

How the results depend on the processing

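With each spot given the class of its highest marker sum, the 9 genes stood at 164.5 per 10000 in the photoreceptor class, 43.4 in the inner retina and 49.4 in the RPE-choroid class of NHP1, above its sclera class at 38.2, and at 62.5 and 78.4 in the neural retina and RPE-choroid of NHP2. The ratios to inner retina and RPE-choroid in NHP1 were then 3.79 and 3.33, and that of neural retina to RPE-choroid in NHP2 was 0.797, turned from 1.24, with 0 of 5 genes at 2-fold (24.6% of all genes). At Leiden resolution 0.5 the inner retina stood at 39.8 and the sclera of NHP2 at 11.3, with ratios of 3.77 to the inner retina and 5.77 for neural retina to sclera, and 2 of 5 genes at 2-fold over the RPE-choroid of NHP2 (52.5% of all). With the rod genes kept in the clustering the inner retina stood at 39.3, the RPE-choroid at 30.6 and 22.2 in NHP1 and NHP2, and the sclera of NHP2 at 11.2. The ratios were then 3.83 and 4.92 in NHP1, and 2.95 (4 of 5 genes at 2-fold, 48.3% of all) over RPE-choroid and 5.84 over sclera in NHP2. NRL turned to 1.64 in the neural retina over RPE-choroid. Without mitochondrial genes and the 50 most abundant others in the totals (SAG and GNGT1 among them), the levels were 187.5, 42.2, 33.1 and 47.6 in the photoreceptor regions, inner retina, RPE-choroid and sclera of NHP1, and 79.01, 66.6 and 11.46 in the 3 regions of NHP2.

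In the piece with most spots alone, the ratios in NHP1 were 3.19 to the inner retina, 4.54 to the RPE-choroid and 5.69 to the sclera. Over the sclera 5 of 5 genes compared in that piece were at 2-fold (36.2% of all), with 2 scleral UMIs each for PDE6A and PDE6G. In NHP2 the piece with most spots held 2 neural retina spots, and gave 5.01 over RPE-choroid and 30.9 over sclera, each with 3 of 3 genes compared at 2-fold (26.9% of 197 and 24.5% of 465 genes), and NRL turned to 2.64 over RPE-choroid. SAG had 16 UMIs in the RPE-choroid of this piece, and SAG and GNGT1 had 5 and 6 in its sclera. The ratio of NHP2 to NHP1 became 0.512, and the NRL share of the photoreceptor regions 17.7%. Without NRL, an alternative chosen after seeing the data, the ratios were 6.37 over the RPE-choroid of NHP1, and 1.43 and 14.1 over the RPE-choroid and sclera of NHP2. The SAG share of the inner retina was 87.9%, 87.7% and 88.03% at Leiden resolution 0.5, by marker class and with the rod genes kept. Counting spots from 2 UMIs gave 70.2% and 24.5% of spots, and thinning gave 56.0% and 28.1%. Tissue over off-tissue spots farther than 3 spacings away was 2.29 in NHP2. The cause of these changes was not tested. The other 100 alternative values of sums, counts and shares were within their intervals or within 1.5 times, while of 183 alternatives for single gene ratios 144 lay within the interval reported, 37 outside it (among them PDE6A over the RPE-choroid of NHP2, 1.23 by marker class), and 2, both of NRL, turned. GNGT1 in the neural retina over the RPE-choroid of NHP2, at 0.999 with an interval spanning 1, ran from 0.681 to 4.51. No paired analysis was possible because each animal gave 1 section and no test was made. Depth limits GNAT1, PDE6B and NR2E3 in both sections and CNGA1 in NHP2.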
